A study of Homo sapiens with 10 samples.

Results

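The genes described here encode the subunits of the Mediator complex and the TBP-associated factors, chosen by name: every protein-coding gene called MED or TAF with a number, with a closing L allowed in both families and a closing B in the TAF family. The names gave 51 genes, 30 MED and 21 TAF, of 31015 genes in the data, and all 51 annotated genes of these names were found. They were measured by SLAM-seq in 22RV1 cells, an established cell line of castration-resistant prostate cancer, in 5 groups of 2 libraries. Control cells were compared with cells treated for 4 h with 20 µM SRPIN340, an inhibitor of the splicing kinase SRPK1, with 50 µM Endovion (SCO-101), with THZ531, an inhibitor of the transcription elongation kinase CDK12, or with THZ531 and Endovion together. The THZ531 dose is 100 nM in the study's methods and 150 nM in the description of the series. All cells received 4-thiouridine, 4sU, for the last 10 min. The label is built into RNA made in that window and pairs as a cytosine once alkylated. Reads with a T>C conversion are therefore taken as nascent RNA, and all reads together as total RNA at the 3′ ends of the transcripts. There was no library without 4sU, so the share of T>C reads that arises without the label was not measured. Part of what is called nascent RNA here may be such background, which would follow total RNA.

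Mediator joins transcription factors at enhancers and promoters to RNA polymerase II. Its head and middle modules contact the polymerase, the tail module receives activators, MED14 runs through the complex as a scaffold, and a detachable kinase module carries CDK8 or CDK19 with cyclin C, MED12 and MED13 or their paralogs. TAFs together with TBP form TFIID, which recognises the core promoter and starts the assembly of the preinitiation complex. Some TAFs are shared with the coactivator SAGA, and TAF5L and TAF6L take the places of TAF5 and TAF6 there. TAF1B belongs to the promoter factor of RNA polymerase I, and TAF15 is an RNA-binding protein of the FET family.

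Reads on genes ranged from 19315560 to 30047897 per library and those with a conversion from 1011598 to 1576121, which was 5.04% to 5.70% of the reads. The 51 genes together had 2210 to 3720 T>C reads per library. After the filter on low counts, 38 of the 51 could be tested in nascent RNA among 9946 genes, and 49 in total RNA among 14690 genes. The genes that passed do not stand for all 51, because 13 had at most 13 T>C reads in any library. The labels do not say whether the 2 libraries of a group came from separate cultures, so the p-values measure the spread between these libraries, which may be technical. Adjusted p-values are Benjamini-Hochberg values of edgeR's quasi-likelihood test over all genes tested, a gene was called at an adjusted p under 0.05, and ± gives the standard error of the fit on 2 libraries per group. Values are relative to the other RNA of the library, so a loss of RNA shared by all genes is not seen, and fewer cells and less RNA per cell cannot be told apart. The prostate markers KRT18, KRT8, FOXA1 and HOXB13 had at least 871 reads in every library, whereas KLK2 and KLK3 had as few as 173 and 49. Of the markers of other cell types, KRT5 was at 0 in all libraries, PECAM1 and PTPRC had at most 1 and 6 reads, COL1A1 had 40 to 83 and ALB 195 to 370.

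The 3′ ends on which the results below turn most are those of TAF5L, a WD40-repeat subunit of SAGA, and of TAF8, the histone-fold partner of TAF10 in TFIID. Both genes have several annotated 3′ UTRs that do not overlap, and the files count each of them. The upstream TAF5L end, at chr1:229599194-229602188 on the minus strand of hg38, belongs to a transcript that codes for 325 residues, and the downstream end, at chr1:229593121-229594296, to one that codes for 589. For TAF8, on the plus strand, the upstream end at chr6:42057550-42057789 belongs to a transcript of 174 residues and the main end at chr6:42077546-42083274 to one of 310. The 30 bases around the hexamer closest to the end of each interval are shown 5′ to 3′ on the transcribed strand, with the hexamer in capitals, because the 2 ends of each gene are counted apart at these places. Where single reads stop was not measured.

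TAF5L upstream end, chr1:229599197-229599226: ttaattatgccaAATAAAactgaattcaca
TAF5L downstream end, chr1:229593123-229593152: attttgttttctATTAAAatgtatttagtt
TAF8 upstream end, chr6:42057758-42057787: gaaaaataaataAATAAAgaaaaaaaaaag
TAF8 main end, chr6:42083237-42083266: ttccatgtcagtAATAAAgagcttctctgt

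The TAF5L ends differ in the hexamer, AATAAA upstream and ATTAAA downstream, and both TAF8 ends carry AATAAA. Only the transcribed strand was searched, and these hexamers are the usual forms of the polyadenylation signal. In the last 50 bases, AATAAA was present in 31.9% and ATTAAA in 9.99% of 53893 intervals of that length or more across the series. The upstream TAF8 window ends in a run of A. Of the 42 intervals of the set with at least 1000 reads over the 10 libraries, 24 had AATAAA in that window, 6 had ATTAAA only and 12 had neither. The intervals across the series were not limited by reads, so their shares are not a like comparison for these 42.

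TAF5L showed the largest change of the 38 and 49 tested genes under THZ531 in either RNA. Its T>C reads were 81 and 36 in control cells, 55 and 77 with SRPIN340, 50 and 42 with Endovion, 223 and 208 with THZ531 and 137 and 133 with the combination. Both libraries with THZ531 and both with the combination lay above every other library. The log2 fold change against control in nascent RNA was 2.11 ± 0.28 with THZ531 (adjusted p = 1.75e-07) and 1.59 ± 0.28 with the combination (adjusted p = 5.20e-05). In total RNA the reads rose from 1052 and 637 to 3517 and 3187 with THZ531, a log2 fold change of 2.22 ± 0.17 (adjusted p = 1.39e-06), and to 2424 and 2056 with the combination, 1.73 ± 0.17 (adjusted p = 1.47e-05). The combination lay below THZ531 alone by 0.49 ± 0.16 in total RNA, which did not pass the test (adjusted p = 0.225). These 4 calls were kept under every alternative tried, 18 in nascent RNA and 17 in total RNA.

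**Figure D1:**
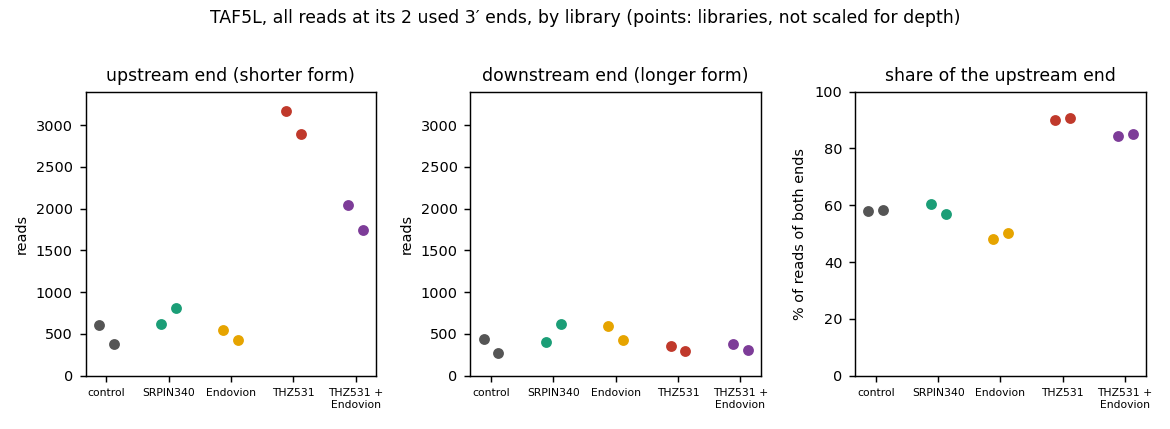
Reads of TAF5L at its upstream 3′ end (left), at its downstream 3′ end (middle) and the share of the upstream end in percent (right), with a point per library, 2 libraries in each of the 5 groups, and counts not scaled for depth. The upstream end reaches 1747 to 3169 reads in the 4 libraries with THZ531 against 372 to 815 in the other 6, while the downstream end stays between 265 and 617 in all 10.

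The rise of TAF5L lay at the upstream end. Total reads there were 610 and 372 in control cells, 3169 and 2897 with THZ531 and 2042 and 1747 with the combination, and the log2 fold change of that end alone was 2.82 ± 0.17 with THZ531 (adjusted p = 1.20e-08) and 2.23 ± 0.17 with the combination (adjusted p = 2.41e-07). The downstream end, that of the full-length 589-residue form, had 442 and 265 reads in control cells, 348 and 290 with THZ531 and 382 and 309 with the combination, which gave log2 fold changes of 0.03 ± 0.20 (adjusted p = 0.918) and 0.25 ± 0.20 (adjusted p = 0.384). The upstream end held 58.0% and 58.4% of the reads of both ends in control cells, 90.1% and 90.9% with THZ531, 84.2% and 85.0% with the combination and 48.1% and 50.1% with Endovion. A test of exon use in edgeR, run on the ends, gave for the downstream end a change in use of -2.15 on the log2 scale with THZ531 (adjusted p = 1.13e-07) and of -1.44 with the combination (adjusted p = 7.74e-05). Nascent reads at the upstream end went from 59 and 30 to 211 and 197 with THZ531, a log2 fold change of 2.41 ± 0.29 (adjusted p = 9.40e-09). At the downstream end they were few, 22 and 6 against 12 and 11, and the change in use did not pass in nascent RNA (adjusted p = 0.0702). Over all tested ends of the set in total RNA, 9 of 57 rose and 10 fell with THZ531, against 15.4% and 14.6% of all ends, and 11 rose and 7 fell with the combination, against 14.9% and 12.9%. In nascent RNA with THZ531 it was 2 of 40 that rose and 2 that fell, against 4.18% and 3.81%. The tests on single ends were chosen after the gene values had been seen.

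Of the 2149 genes with at least 2 tested ends in total RNA, 28.5% had an end whose use changed with THZ531 and 19.3% with the combination, and of the 7 Mediator and TAF genes among them it was 2 under each, a share close to that of all genes. TAF8 was the other gene under THZ531. Its main end had 371 and 330 reads in control cells and 193 and 120 with THZ531, a log2 fold change of -1.04 ± 0.20 (adjusted p = 0.00104), while the upstream end had 38 and 17 reads in control cells and 46 and 31 with THZ531, so that its share of both went from 9.29% and 4.90% to 19.2% and 20.5%. Another TAF8 end, farther downstream, had 20 and 24 reads in control cells and 7 and 4 with THZ531 (adjusted p = 0.0455). The use of the upstream TAF8 end changed by 1.52 on the log2 scale (adjusted p = 0.0212). Under the combination the other gene was MED11, a head subunit that pairs with MED22. Its upstream end, of a 93-residue transcript, had 55 and 92 reads in control cells and 23 and 6 with the combination, and its use changed by -1.62 (adjusted p = 0.0368). The control libraries differed here, with 8.74% and 21.3% of MED11 reads at that end, and the interval of MED11 overlaps CXCL16 on the opposite strand.

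TAF1, the largest subunit of TFIID and a reader of acetylated histones, was the 1 gene of the set called in nascent RNA with SRPIN340 and with Endovion. T>C reads were 22 and 24 in control cells, 50 and 84 with SRPIN340, 89 and 66 with Endovion, 44 and 37 with THZ531 and 49 and 63 with the combination. Both control libraries lay below all 8 treated ones. The log2 fold change in nascent RNA was 1.99 ± 0.37 with Endovion (adjusted p = 0.000331), which was kept under all 18 alternatives, and 1.63 ± 0.38 with the combination (adjusted p = 0.00275). The latter call was lost without combination replicate 2 (1.32, adjusted p = 0.0767). With SRPIN340 the log2 fold change was 1.38 ± 0.37 (adjusted p = 0.0476), close to the threshold, and the call was lost in 12 of 18 alternatives, among them those without SRPIN340 replicate 2 (1.02, adjusted p = 0.618), without control replicate 1 (1.17, adjusted p = 0.206) and without control replicate 2 (1.61, adjusted p = 0.179). Without either Endovion replicate or either replicate of the combination the fold was the same and the adjusted p lay between 0.0508 and 0.0699. With THZ531 alone the value was 0.98 ± 0.39 (adjusted p = 0.113). In total RNA the reads went from 915 and 964 to 2742 and 1615 with Endovion, 1.34 ± 0.33 (adjusted p = 0.0417). That call was lost without either Endovion replicate (1.13, adjusted p = 0.177, without replicate 1 and 1.52, adjusted p = 0.0995, without replicate 2), without either control replicate (1.19, adjusted p = 0.159, and 1.46, adjusted p = 0.240) and without either replicate of the combination (1.28, adjusted p = 0.103, and 1.34, adjusted p = 0.0880).

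**Figure D2:**
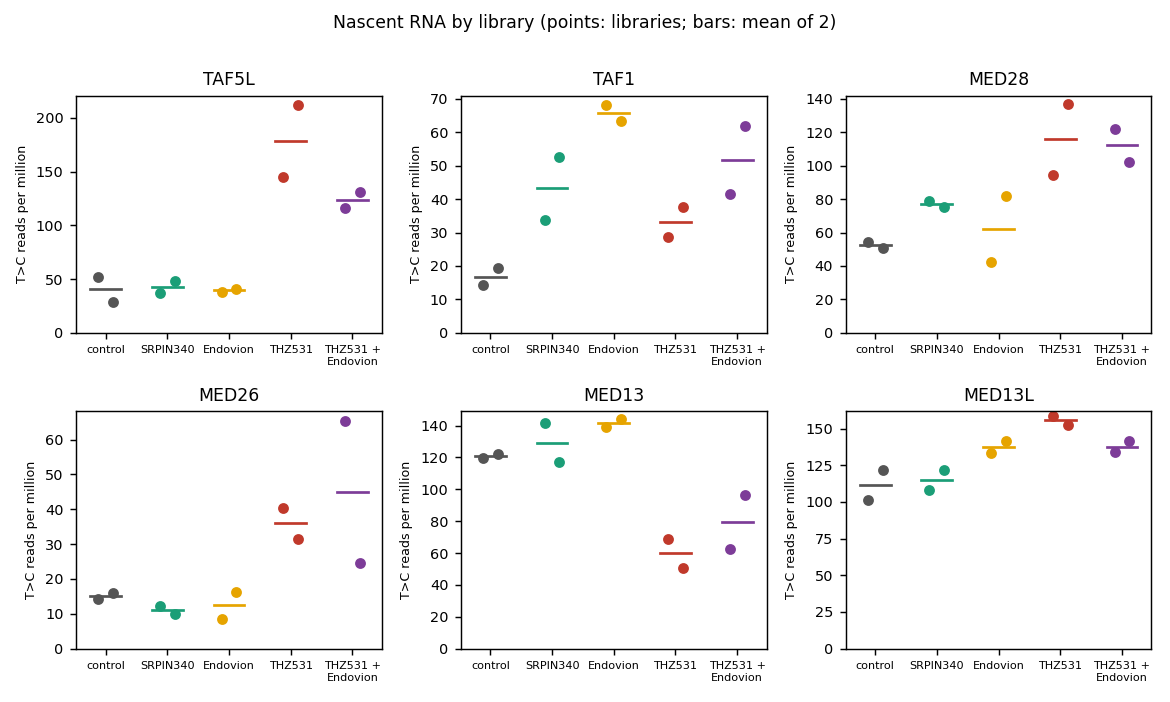
Nascent RNA in CPM (T>C reads scaled to library size) for TAF5L, TAF1, MED28, MED26, MED13 and MED13L, each panel on its own axis from 0, with a point per library and a bar at the mean of the 2 libraries of each group. TAF5L is highest in the THZ531 libraries, TAF1 lowest in the control libraries, and MED13 lowest in the libraries with THZ531.

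In nascent RNA, 1 of the 38 genes rose with SRPIN340 (TAF1) and none fell, where 0.845% of all genes tested rose and 0.191% fell. With Endovion it was again TAF1 alone, against 2.04% up and 0.623% down over all genes. THZ531 raised TAF5L and MED28 and lowered MED13, against 3.86% up and 3.6% down. The combination raised TAF5L, TAF1, MED28 and MED26 and lowered none, against 4.61% up and 3.49% down. The number called under THZ531 was 5 without THZ531 replicate 1 and 1 without replicate 2, and that under the combination was 2 without control replicate 2 or without combination replicate 1. With upper-quartile scaling the split was 2 up and 2 down under THZ531 and 4 up and 1 down under the combination. The median log2 fold change over the 38 genes was 0.06 with SRPIN340, 0.12 with Endovion, -0.10 with THZ531 and -0.06 with the combination, and over all genes it lay between -0.02 and -0.01.

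MED28, placed in the head module here, had 84 and 63 T>C reads in the controls, 145 and 135 with THZ531 and 144 and 104 with the combination. All 4 libraries with THZ531 were above both control libraries in counts scaled to library size (CPM). So were both SRPIN340 libraries, at 79.1 and 75.1 against 54.1 and 50.6 in the controls. The log2 fold changes were 1.13 ± 0.27 with THZ531 (adjusted p = 0.00456) and 1.10 ± 0.28 with the combination (adjusted p = 0.00606). Both calls were lost when overlapping intervals of all genes were summed (adjusted p = 0.115 and 0.113). The first was lost without THZ531 replicate 2 (0.85, adjusted p = 0.178), and the second without combination replicate 1 (0.96, adjusted p = 0.117) or control replicate 2 (1.05, adjusted p = 0.0584). In total RNA MED28 rose by 0.52 ± 0.14 with THZ531 (adjusted p = 0.0105), a call lost without THZ531 replicate 2 (adjusted p = 0.0901) or control replicate 2 (adjusted p = 0.0729). Its interval overlaps FAM184B on the opposite strand. Genes on the opposite strand also overlap MED13L, MED26, MED31, TAF10, TAF11, TAF5 and TAF6, and since the strand setting of the counting is not given in the sources used here, the reads of such pairs cannot be told apart.

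MED26, the subunit that links Mediator to elongation factors, had 22 and 20 T>C reads in the controls, 62 and 31 with THZ531 and 77 and 25 with the combination. The 2 combination libraries differed widely, at 65.2 and 24.6 CPM. The log2 fold change with the combination was 1.58 ± 0.46 (adjusted p = 0.0213), which fell to 0.70 without its replicate 1 (adjusted p = 0.629) and was also lost without control replicate 1 (adjusted p = 0.100) or replicate 2 (adjusted p = 0.0867). The same nascent call was lost when overlapping intervals of all genes were summed (adjusted p = 0.160) and with DESeq2 (adjusted p = 0.0836). Total reads were 447 and 319 in control cells, 806 and 552 with THZ531 and 898 and 525 with the combination, with log2 fold changes of 1.01 ± 0.18 (adjusted p = 0.000667) and 1.19 ± 0.18 (adjusted p = 0.000228), both kept under all 17 alternatives.

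MED13, which tethers the kinase module to the core of Mediator, was the 1 gene that fell in nascent RNA. Its T>C reads were 186 and 152 in control cells, 209 and 187 with SRPIN340, 181 and 150 with Endovion, 106 and 50 with THZ531 and 74 and 98 with the combination. The 4 libraries with THZ531 lay below the other 6, both as counts and in CPM. The log2 fold change was -0.99 ± 0.25 with THZ531 (adjusted p = 0.00569), and the call was lost without THZ531 replicate 2 (-0.81, adjusted p = 0.151). That call was also lost when overlapping intervals of all genes were summed (adjusted p = 0.0895). Under the combination the value was -0.61 ± 0.24 (adjusted p = 0.115). In total RNA MED13 rose with Endovion, with 2434 and 1669 reads in control cells and 3362 and 2747 with Endovion, by 0.75 ± 0.13 (adjusted p = 0.00380), lost without control replicate 2 (0.56, adjusted p = 0.0674). With THZ531 its total RNA gave -0.29 ± 0.13 (adjusted p = 0.114).

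In total RNA none of the 49 genes was called with SRPIN340, where 1.96% of all genes were called in either direction. At an unadjusted p under 0.05 it was 12 (19.3% of all genes), DESeq2 called 4, and 6 were called without control replicate 1, 1 without THZ531 replicate 1 and 2 without THZ531 replicate 2. With Endovion 7 rose and 1 fell, against 8.9% up and 2.53% down. With THZ531 10 rose and 8 fell, against 16.6% and 14.1%. The combination raised 11 and lowered 7, against 16.6% and 12.4%. The median over the 49 was 0.06 with Endovion, 0.01 with THZ531 and 0.14 with the combination, beside 0.02, -0.01 and -0.00 over all genes. Upper-quartile scaling lowered the median of all genes in these comparisons to -0.10, -0.13 and -0.15 and gave splits of 5 up and 3 down, 8 up and 12 down, and 8 up and 8 down. Calls with Endovion went from 8 to 0 without control replicate 2, to 3 and 2 without Endovion replicates 1 and 2, and to 5 without combination replicate 1. Those with THZ531 went from 18 to 8 without THZ531 replicate 2, and those with the combination from 18 to 10 without either of its replicates.

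The study's methods set the limit at an unadjusted p under 0.05 with a log2 value of at least 1 in size. By it, 2 genes of the set passed in nascent RNA with SRPIN340 (4.66% of all genes), 2 with Endovion (6.49%), 6 with THZ531 (12%), 6 with the combination (11.3%) and 1 in the combination against THZ531 (3.44%). In total RNA the counts were 0 (4.22%), 3 (6.88%), 6 (14.8%), 5 (13.8%) and 0 (2.02%). None of these shares of the total RNA exceeded that of all genes.

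**Figure D3:**
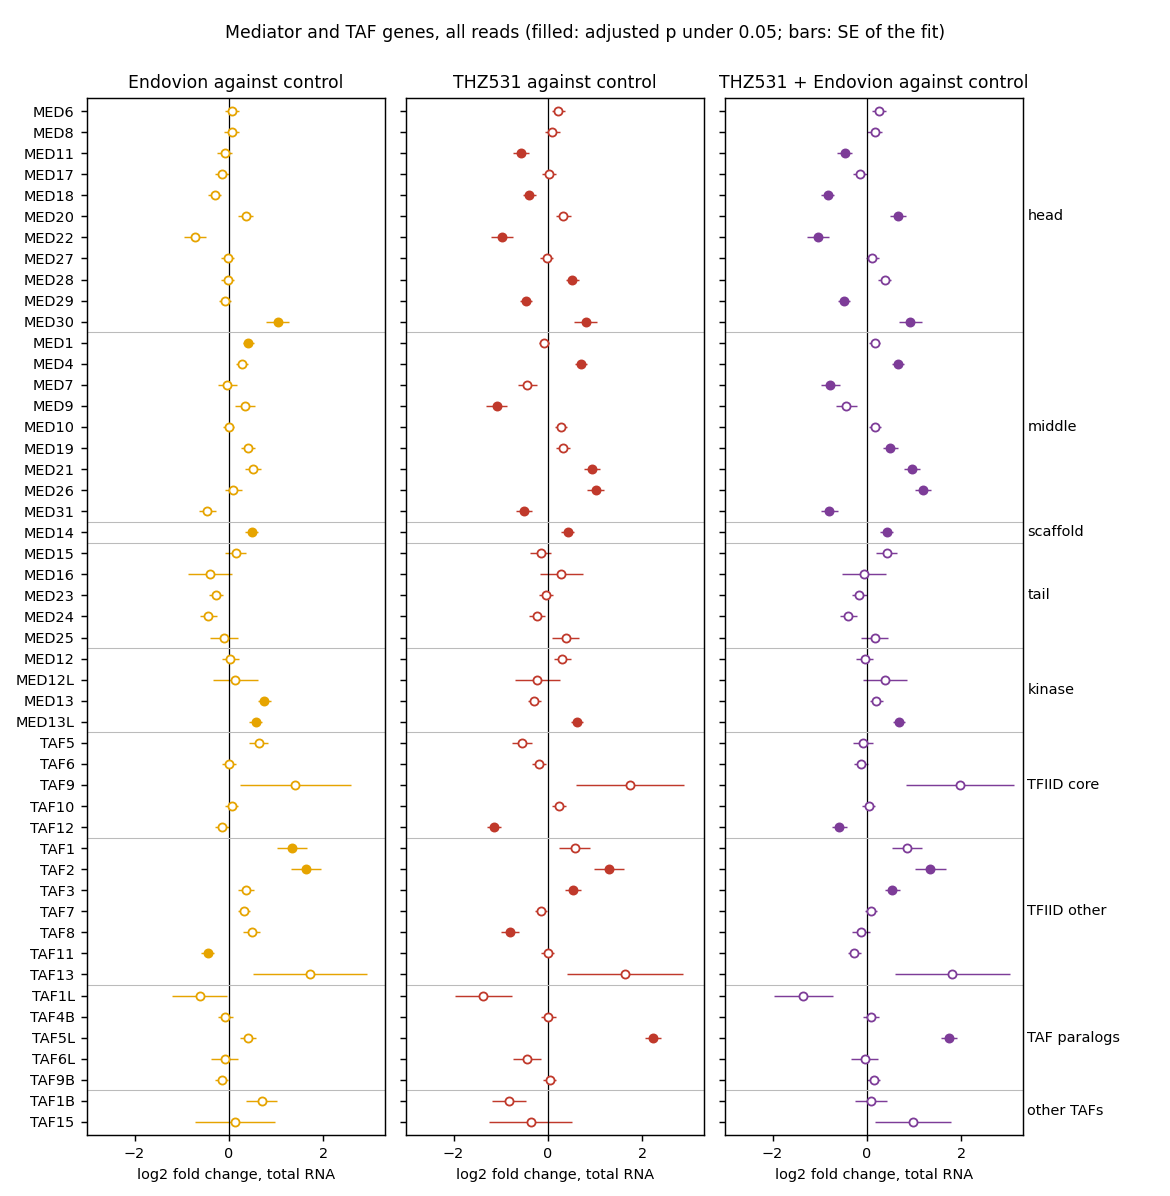
Log2 fold change of total RNA against control (x axis) for the 49 tested genes (y axis), grouped by module, with Endovion, THZ531 or both. Filled points passed an adjusted p under 0.05 and bars are the standard error of the fit. Head and middle subunits stand on both sides of 0 under THZ531, and no subunit placed in the tail here is filled in any panel. TAF5L is the filled point farthest to the right in both panels with THZ531.

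All 11 subunits placed in the head here, MED27 to MED30 among them, were tested in total RNA. MED28 and MED30 rose with THZ531, and MED11, MED18, MED22 and MED29 fell. MED22, the partner of MED11, was described after its values were seen, as were MED11, MED7, MED19 and TAF3, and their calls were not followed through the alternatives. It had 406 and 487 reads in control cells, 280 and 138 with THZ531 and 173 and 179 with the combination, with log2 fold changes of -0.97 ± 0.23 (adjusted p = 0.00520) and -1.04 ± 0.23 (adjusted p = 0.00368). Every library with THZ531 lay below both control libraries, and so did both with Endovion alone (317 and 182 reads), where MED22 was not called. With SRPIN340 it had 432 and 543 reads. MED11 fell by 0.57 ± 0.17 on the log2 scale (adjusted p = 0.0162) and, with the combination, by 0.47 ± 0.17 (adjusted p = 0.0421). MED18, which forms the movable jaw of the head with MED20, was lower in CPM in every treated library than in both control libraries (49.2 and 59.0). It was at 41.3 and 40.2 with SRPIN340 and at 41.1 and 46.7 with Endovion, and neither change was called. With the combination MED18 fell by 0.83 ± 0.14 on the log2 scale (adjusted p = 0.000430), a call kept under all 17 alternatives. Under THZ531 alone the value was -0.40 ± 0.13 (adjusted p = 0.0347), and the call was lost without either THZ531 replicate (adjusted p = 0.0875 and 0.0637), without control replicate 2 (adjusted p = 0.194) and without either SRPIN340 replicate (adjusted p = 0.0573 and 0.0575).

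MED20 went the other way from MED18 under the combination. It had 440 and 338 reads in control cells and 512 and 478 with the combination, a log2 fold change of 0.66 ± 0.17 (adjusted p = 0.00777), lost without combination replicate 2 (adjusted p = 0.0562) or control replicate 2 (adjusted p = 0.0792). MED29 fell by 0.47 ± 0.13 with THZ531 (adjusted p = 0.0129), and by 0.49 ± 0.13 with the combination (adjusted p = 0.0112). Those calls were lost without THZ531 replicate 2 (adjusted p = 0.0882) and without combination replicate 2 (adjusted p = 0.0735). MED30 rose by 1.03 ± 0.25 with Endovion (adjusted p = 0.0234), by 0.80 ± 0.25 with THZ531 (adjusted p = 0.0312) and by 0.92 ± 0.25 with the combination (adjusted p = 0.0173). Its control libraries lay far apart, at 576 and 286 reads, and without control replicate 2 the values were 0.65 (adjusted p = 0.175), 0.43 (adjusted p = 0.213) and 0.54 (adjusted p = 0.122). The Endovion value was also lost without Endovion replicate 2 (0.72, adjusted p = 0.151) or combination replicate 1 (0.97, adjusted p = 0.0510). The THZ531 value was also lost without THZ531 replicate 2 (0.55, adjusted p = 0.235) or either combination replicate (0.75, adjusted p = 0.0618, and 0.80, adjusted p = 0.0576), and with the replicate number as a block (adjusted p = 0.0553). The combination value was also lost without either of its own replicates (0.95, adjusted p = 0.0705, and 0.83, adjusted p = 0.116). MED17, the central head subunit, was not called in any comparison.

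Among the 9 middle subunits MED4, MED21 and MED26 rose with THZ531 and MED9 and MED31 fell. MED21 had 439 and 384 reads in control cells, 498 and 615 with SRPIN340 and 533 and 504 with Endovion. It had 735 and 632 with THZ531 and 637 and 651 with the combination. Every treated library lay above both controls, and those with THZ531 were highest. The log2 fold changes were 0.94 ± 0.17 with THZ531 (adjusted p = 0.000833) and 0.96 ± 0.17 with the combination (adjusted p = 0.000748). MED4 went from 1284 and 1064 to 1848 and 1467 with THZ531, 0.70 ± 0.12 (adjusted p = 0.000828), and to 1550 and 1419 with the combination, 0.65 ± 0.12 (adjusted p = 0.00143). MED4 shares its locus with an antisense transcript, MED4-AS1. MED9 fell from 275 and 247 reads to 141 and 79 with THZ531, -1.09 ± 0.23 (adjusted p = 0.00232), and had 152 and 158 with the combination, where the value of -0.44 ± 0.22 did not pass (adjusted p = 0.152). The calls of MED4, MED21 and MED9 were kept under all 17 alternatives.

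MED31 and MED7 meet in the same part of the middle module. MED31 fell with the combination by 0.80 ± 0.18 (adjusted p = 0.00414), kept under all 17 alternatives. With THZ531 alone its value was -0.51 ± 0.18 (adjusted p = 0.0417), lost without THZ531 replicate 2 (adjusted p = 0.161), either control replicate (adjusted p = 0.140 and 0.0592) or either SRPIN340 replicate (adjusted p = 0.0569 and 0.0560). The interval counted for MED31 was the best covered of 3 that overlap, and its transcript codes for 43 residues. In CPM, MED31 was at 48.7 and 44.9 in control cells and lower in every treated library. It was at 34.6 and 34.3 with SRPIN340 and at 27.5 and 40.7 with Endovion, and neither change was called. MED7 had 430 and 307 reads in control cells and 155 and 185 with the combination, a log2 fold change of -0.78 ± 0.20 (adjusted p = 0.00906), and -0.44 ± 0.20 with THZ531 (adjusted p = 0.109). MED19 rose with the combination by 0.49 ± 0.16 (adjusted p = 0.0294). MED1, through which nuclear receptors contact Mediator, rose in total RNA with Endovion by 0.41 ± 0.11 (adjusted p = 0.0273), a call lost in 9 of 17 alternatives, among them those without control replicate 1 (0.38, adjusted p = 0.0702), control replicate 2 (0.40, adjusted p = 0.149), Endovion replicate 2 (0.28, adjusted p = 0.242), THZ531 replicate 1 (0.35, adjusted p = 0.0506) and combination replicate 1 (0.35, adjusted p = 0.0643).

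The scaffold MED14 had 913 and 675 reads in control cells, 1122 and 1416 with SRPIN340, 1116 and 857 with Endovion, 1002 and 832 with THZ531 and 897 and 805 with the combination. Its log2 fold changes were 0.48 ± 0.14 with Endovion (adjusted p = 0.0353), 0.42 ± 0.14 with THZ531 (adjusted p = 0.0315) and 0.42 ± 0.14 with the combination (adjusted p = 0.0333). All 3 calls were lost without control replicate 2, at 0.34 (adjusted p = 0.327), 0.28 (adjusted p = 0.252) and 0.28 (adjusted p = 0.274), and under upper-quartile scaling. The smallest of the values, 0.22 (adjusted p = 0.391), came with THZ531 when its replicate 2 was left out. Combination replicate 1 decided all 3 as well, with adjusted p = 0.0685, 0.0609 and 0.113 without it. The Endovion call was also lost without either Endovion replicate (adjusted p = 0.151 and 0.139) or either SRPIN340 replicate (adjusted p = 0.0529 and 0.0532), and the combination call without its replicate 2 (adjusted p = 0.146) or either SRPIN340 replicate (adjusted p = 0.0504 and 0.0508).

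None of the subunits placed in the tail here, MED15, MED16, MED23, MED24 and MED25, was called in either RNA. This depends on the assignment to modules, in which MED27, MED28, MED29 and MED30 were counted with the head. In total RNA with THZ531, 16.6% of all genes rose and 14.1% fell, so these few genes cannot show whether the tail differs from other genes. MED24, the gene with most reads of the set, had 11678 and 14776 reads in control cells, of which 603 and 696 had a conversion. With Endovion its total RNA gave -0.44 ± 0.18 (adjusted p = 0.138) and with THZ531 -0.23 ± 0.18 (adjusted p = 0.355). MED23 lay within 0.27 of 0 in total RNA in all 4 comparisons with control. MED15, MED16 and MED25 had at most 6 T>C reads in a library and were tested in total RNA only.

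Of the TFIID genes, TAF12 and TAF8 fell in total RNA with THZ531 and TAF2 and TAF3 rose. TAF12, a histone-fold subunit shared with SAGA, had 1310 and 1248 reads in control cells, 657 and 385 with THZ531 and 670 and 704 with the combination. The 4 libraries with THZ531 lay below the other 6. The log2 fold change was -1.14 ± 0.15 with THZ531 (adjusted p = 8.89e-05), kept under all 17 alternatives, and -0.58 ± 0.15 with the combination (adjusted p = 0.00939), lost without combination replicate 1 (-0.49, adjusted p = 0.0732). In nascent RNA its T>C reads were 60 and 46 in control cells and 33 and 8 with THZ531, a value of -1.28 ± 0.42 that did not pass (adjusted p = 0.0502). TAF8 fell by 0.80 ± 0.19 with THZ531 (adjusted p = 0.00585), kept under all 17 alternatives, and was not called with the combination (-0.13 ± 0.19, adjusted p = 0.645).

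**Figure D4:**
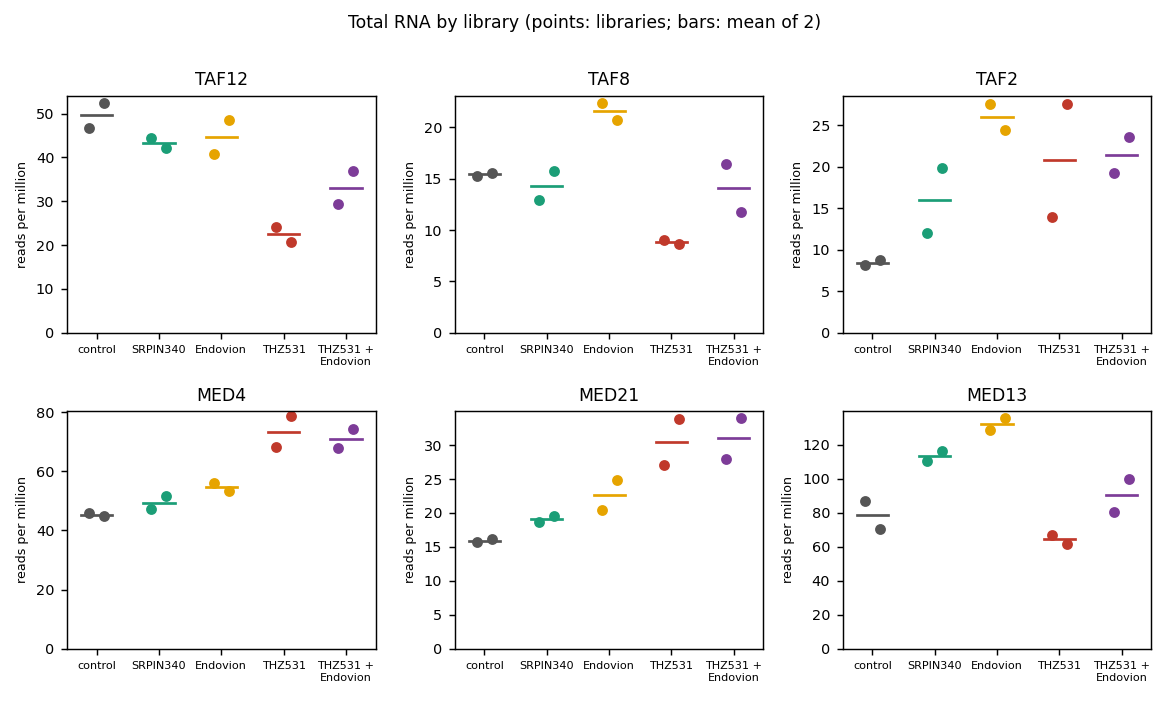
Total RNA in CPM (reads scaled to library size) for TAF12, TAF8, TAF2, MED4, MED21 and MED13, each panel on its own axis from 0, with a point per library and a bar at the mean of the 2 libraries of each group. TAF12 is lowest and MED21 highest in the 4 libraries with THZ531. MED21 is above both control libraries in every treated library, and the THZ531 libraries of TAF2 lie apart, at 13.9 and 27.6.

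TAF2, which contacts the initiator element together with TAF1, had 228 and 208 reads in control cells, 323 and 627 with SRPIN340, 721 and 495 with Endovion, 378 and 515 with THZ531 and 440 and 452 with the combination. No treated library fell below the controls. The log2 fold changes were 1.63 ± 0.32 with Endovion (adjusted p = 0.0121), 1.29 ± 0.32 with THZ531 (adjusted p = 0.0123) and 1.35 ± 0.32 with the combination (adjusted p = 0.0108). Without THZ531 replicate 2 the THZ531 value was 0.67 (adjusted p = 0.0953). Each call was lost without either control library (adjusted p = 0.0609 and 0.161 for Endovion, 0.0855 and 0.0993 for THZ531, 0.0761 and 0.0981 for the combination). The Endovion call was also lost without either Endovion library (adjusted p = 0.0843 and 0.0605), and the combination call without either of its own (adjusted p = 0.0562 and 0.0831).

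TAF3, whose PHD finger reads trimethylated histone H3, rose by 0.53 ± 0.17 with THZ531 (adjusted p = 0.0254) and by 0.54 ± 0.17 with the combination (adjusted p = 0.0237). TAF11, the histone-fold partner of TAF13, fell with Endovion by 0.45 ± 0.14 (adjusted p = 0.0448), a call lost in 7 of 17 alternatives, among them those without Endovion replicate 1 (-0.28, adjusted p = 0.343), control replicate 2 (-0.35, adjusted p = 0.265), either SRPIN340 replicate (adjusted p = 0.0660 and 0.0650) and combination replicate 2 (adjusted p = 0.0571). TAF6, TAF7 and TAF10 were not called in any comparison of either RNA.

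Of the paralog pairs, MED13 and MED13L have most reads. MED13L rose in total RNA, from 2630 and 2201 reads to 3477 and 2890 with Endovion, 3296 and 3046 with THZ531 and 3318 and 2941 with the combination. All 6 of these libraries were above both control libraries, and so were those with SRPIN340 (3199 and 4031 reads). The log2 fold changes were 0.57 ± 0.13 with Endovion (adjusted p = 0.0125), 0.61 ± 0.13 with THZ531 (adjusted p = 0.00253) and 0.68 ± 0.13 with the combination (adjusted p = 0.00130). The last was kept under all 17 alternatives. The THZ531 value was lost without THZ531 replicate 2 (0.33, adjusted p = 0.106), and the Endovion value without control replicate 2 (0.51, adjusted p = 0.120) or either Endovion replicate (0.62, adjusted p = 0.0538, and 0.51, adjusted p = 0.0896). Its nascent RNA with THZ531 gave 0.49 ± 0.21 (adjusted p = 0.158), beside the -0.99 of MED13, and the difference between the paralogs was not tested. MED12 had at most 13 T>C reads in a library and gave 0.31 ± 0.18 in total RNA with THZ531 (adjusted p = 0.219), and MED12L had 17 to 62 reads.

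TAF5, the TFIID counterpart of TAF5L, had 227 and 205 reads in control cells, 154 and 107 with THZ531 and 158 and 171 with the combination. Its log2 fold change with THZ531 was -0.55 ± 0.21 (adjusted p = 0.0616), opposite in sign to the 2.22 of TAF5L. TAF6L, the counterpart of TAF6 in SAGA, had 44 to 128 reads and gave -0.45 ± 0.29 with THZ531 (adjusted p = 0.267), and TAF6 gave -0.18 ± 0.15 (adjusted p = 0.395). TAF9B, the paralog of TAF9, had 952 and 906 reads in control cells and 999 and 690 with THZ531, and TAF4B, the paralog of TAF4, had 548 and 485 and then 555 and 369. Neither was called in any comparison. TAF9 had at most 15 reads, TAF4 at most 11, TAF13 at most 13 and TAF15 at most 18 in any library. The interval counted for each of these genes lies upstream of the annotated 3′ end of the gene. For TAF4, on the minus strand, it starts at position 61974798, and the gene ends at 61953469. Reads farther downstream were not counted, so these numbers do not show that the genes are silent. How far this lowered the counts was not tested. TAF4 did not pass the filter on low counts, and TAF9, TAF13 and TAF15 were tested in total RNA on these few reads. Such a gap is not particular to genes with few reads. The counted intervals of TAF1, TAF12, MED4 and MED21 also stop before the annotated end of the gene. For TAF1, on the plus strand, the interval ends at position 71466005 and the gene at 71532374. TAF1L and TAF7L had at most 38 and 7 reads. TAF1L is a near-identical copy of TAF1 without introns, and reads of the pair could be split between them by the authors' counting. TAF1B had 90 and 45 reads in control cells and 29 and 35 with THZ531 (-0.83 ± 0.36, adjusted p = 0.0915).

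Adding Endovion to THZ531 called none of the genes against THZ531 alone, where 0.322% of all genes were called in nascent and 0.511% in total RNA. DESeq2 called none as well, and 4 of 38 and 10 of 49 had an unadjusted p under 0.05 in edgeR, beside 7.81% and 11% of all genes. The departure of the combination from the sum of both treatments was called for none, where 0.302% and 0.00681% of all genes were called, and 3 and 6 genes had an unadjusted p under 0.05, beside 7.7% and 13% of all genes. The largest of these in total RNA was TAF2, at -1.57 ± 0.44 on the log2 scale (adjusted p = 0.258), and TAF5L gave -0.90 ± 0.23 (adjusted p = 0.234). Over all 5 conditions, 5 of the 38 genes differed in nascent RNA, where 9.34% of all genes did, and 25 of the 49 in total RNA, where 31.9% did.

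The labelled share, T>C reads over all reads of a gene, had a median of 5.60% over the 38 genes in control cells and of 5.19% over all genes tested, of which the 95th percentile was 17.1%. TAF11 was lowest at 2.36%, followed by MED21 at 2.43%, TAF1 at 2.45% and MED9 at 2.49%. MED30 was highest at 27.8% and TAF4B next at 20.1%, above 98.8% and 96.8% of all genes tested. MED17 followed at 17.0%, and its interval overlaps that of another gene on the same strand. The share was not corrected for the T content of the intervals, which was 136 in 284 bases for MED30 and 114 in 432 for MED24. The 2 control libraries of MED30 were at 25.4% and 32.9%, and the 8 treated libraries lay below both, at 21.3% or less. MED19 had 115 and 18 T>C reads in the 2 control libraries and a share of 3.78% to 23.9% over the 10 libraries. No gene of the set was called for a change of its labelled share, where 0.0603% of all genes were called with SRPIN340, 0.271% with Endovion, 0.0905% with THZ531 and 0.804% with the combination. At an unadjusted p under 0.05 the smallest p belonged to MED13, whose share was 7.64% and 9.11% in control cells, 5.82% and 4.37% with THZ531 and 4.04% and 5.14% with the combination, a log2 odds change of -0.92 ± 0.25 for the latter (adjusted p = 0.0807). The share of TAF5L was 7.70% and 5.65% in control cells and 6.34% and 6.53% with THZ531, a log2 odds change of -0.08 (adjusted p = 0.954).

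**Figure D5:**
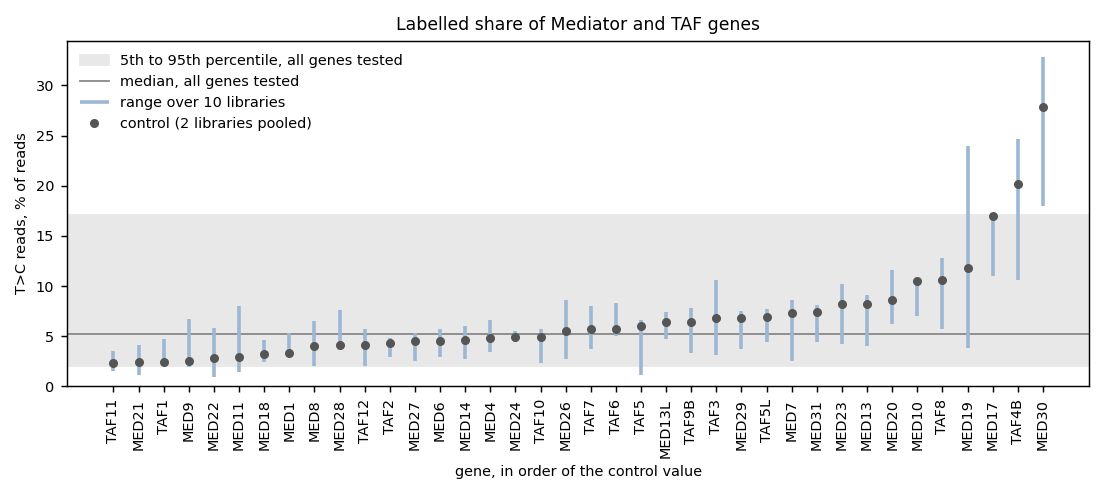
Share of T>C reads in percent of all reads (y axis) for the 38 tested genes in order of their control value (x axis). Points give both control libraries pooled, bars the range over the 10 libraries, the line and the grey band the median and the 5th to 95th percentile of all genes tested. TAF4B and MED30 have control values above the band and MED19 has one of the widest ranges.

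The genes differ widely in the length of their transcribed region, from 2.18 kb for MED11 to 352 kb for MED12L. Of the 8 tested in total RNA that span over 100 kb, 3 rose and none fell with THZ531, where 18.6% and 9.996% of the 2801 genes of that length did, and 4 rose and none fell with Endovion, where it was 12.2% and 1.36%. Of the 21 that span under 20 kb, 2 rose and 6 fell with THZ531, beside 11.6% and 15.9% of 5882 genes, and 1 rose and 1 fell with Endovion, beside 4.86% and 3.86%. In nascent RNA with THZ531, none of the 7 tested genes over 100 kb rose and 1 fell, beside 2.84% and 2.79% of all genes of that length. Of the 17 under 20 kb, 1 rose and none fell, beside 4.17% and 3.94%. The nascent calls in these classes were 1 gene each, MED13 at 123 kb and MED28 at 19.5 kb. In total RNA with THZ531 both genes had the same sign as in nascent RNA. Of the 20 genes of 20 to 100 kb tested in total RNA, 5 rose and 2 fell with THZ531, beside 20.6% and 14.3% of 6007 genes. Across the 49 genes, Spearman's rho of the log2 fold change in total RNA with the span was 0.16 with THZ531, 0.37 with Endovion and 0.35 with the combination, beside 0.10, 0.19 and 0.19 across 12884 protein-coding genes tested. These are correlations across genes measured in the same libraries, and genes are not independent replicates.

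Other factors that work at the same step were read from a list of general transcription factors, TBP and its regulators, SAGA subunits and the kinase subunits of Mediator. In total RNA with THZ531, 4 of 13 tested general factor genes rose and 2 fell, 3 of 14 SAGA genes rose and 1 fell, and 3 of 5 of TBP and its regulators rose, beside 16.6% of all genes that rose and 14.1% that fell. GTF2B, the factor that bridges TBP and the polymerase, rose by 1.15 (adjusted p = 0.000845), and GTF2E1, a subunit of TFIIE, fell by 1.76 (adjusted p = 1.74e-05), both kept under all 17 alternatives. Of the Mediator kinases, CDK8 rose by 2.19 with THZ531, from 130 and 33 reads to 270 and 338 (adjusted p = 0.0138), and CDK19 fell by 0.43 (adjusted p = 0.0100). Without THZ531 replicate 2 both calls were lost (1.65, adjusted p = 0.0713, and -0.43, adjusted p = 0.0560), and that of CDK8 also in a fit of 2 groups (adjusted p = 0.0693). The control libraries of CDK8 differed, and its value was 3.33 without control replicate 1 and 1.55 without control replicate 2. GTF2A1, which stabilises TBP on DNA, rose in nascent RNA with SRPIN340 by 1.15 (adjusted p = 0.0233), with Endovion by 1.30 (adjusted p = 0.00300) and with the combination by 1.15 (adjusted p = 0.00619). All 3 calls were lost without control replicate 2, at 0.78 (adjusted p = 0.512), 0.93 (adjusted p = 0.199) and 0.79 (adjusted p = 0.184), and with the plain sum of overlapping intervals. That with SRPIN340 was lost also with DESeq2, in a fit of 2 groups and without SRPIN340 replicate 2 (0.97, adjusted p = 0.355), and that with Endovion without Endovion replicate 1 (1.26, adjusted p = 0.0726). No gene of the SAGA list, which does not hold TAF5L, was called in nascent RNA in a comparison with control. Of all genes tested in nascent RNA, 3.86% rose and 3.6% fell with THZ531.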

How the data were processed

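SLAM-seq libraries of 22RV1 cells were read as deposited. The authors mapped 3′ end reads to hg38 and deposited, per library and annotated 3′ UTR interval, the count of all reads and of reads with T>C conversions from SLAM-DUNK. Bowtie2 2.3.4.1, SAMtools 1.6 and DESeq2 1.38.2 stand in the submitters' processing notes. Libraries were built with a module for molecular identifiers, but whether these were used in counting, and whether sequence variants were masked, is not given in the sources used here.

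Each file held 104653 intervals. Of these, 92910 were matched to GENCODE transcripts, and of overlapping intervals of a gene the best covered was kept, which left 57437. Unmatched intervals held 3.53% of the T>C reads. Kept intervals were summed per gene. Counts were tested with edgeR 4.0.16 (R 4.3.3; TMM factors, filterByExpr, robust quasi-likelihood fit, all 10 libraries, 5 residual degrees of freedom), with DESeq2 1.42.0 as an alternative. The labelled share was tested as an interaction of treatment with read class, with the library as a block. Ends were tested in the same way and their use with diffSpliceDGE. Genes were named in full when called in nascent RNA or among the 5 smallest p-values per direction in total RNA where both libraries of the higher group had 20 or more T>C reads, or as paralogs, scaffold subunits or extremes of read number. The genes and lists were chosen with earlier results of these data known. Libraries of a group differed by more than sampling noise. The chi-square over its degrees of freedom was 3.54 to 4.90 in nascent RNA and 15.1 to 23.7 in total RNA. On simulated data for THZ531 in nascent RNA with 9946 genes, 22% of changes of 1 on the log2 scale and 72% of changes of 2 were recovered.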

Additional observations from a re-analysis of the deposited data

How the results depend on the processing

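Of 45 calls of Mediator and TAF genes followed through the alternatives, 17 were kept under every one, among them all 4 of TAF5L. With the results for the TAF5L ends added, 702 of 822 alternatives of called results kept the call, 120 lost it and none reversed it, and 59 of 4588 alternatives of results that were not called gained a call. In nascent RNA the count with SRPIN340, 1, was 0 with DESeq2, with upper-quartile factors, with the plain sum of overlapping intervals, with scaling by all reads and with a fit of 2 groups, and 2 at the methods' limit (an unadjusted p under 0.05 with a log2 value of at least 1 in size). Leaving out 1 library gave 0 to 1. With Endovion it was 1, 2 at the methods' limit and 1 to 2 leaving out a library. With THZ531 it was 3, with 1 for the plain sum, 6 at the methods' limit and 1 to 5 leaving out a library. With the combination it was 4, with 2 for the plain sum and 2 to 4 leaving out a library. The combination against THZ531 gave 0, and 1 at the methods' limit. In total RNA the count with SRPIN340, 0, was 7 without the filter on low counts, 4 with DESeq2 and 0 to 6 leaving out a library. With Endovion it was 8, with 4 for the plain sum, 5 for 2 groups, 3 at the methods' limit and 0 to 9 leaving out a library. With THZ531 it was 18, with 6 at the methods' limit and 8 to 18 leaving out a library. With the combination it was 18, with 5 at the methods' limit and 10 to 19 leaving out a library. The combination against THZ531 gave 0, and 3 without the filter. The cause of these changes was not tested. Where an arm is left with 1 library, that library is assumed to vary like the other groups.

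Libraries of the same replicate number showed no shared deviation between groups, with correlations of deviations between -0.07 and 0.06. Whether they were prepared together is not given in the labels, and these correlations cannot show it. With the replicate number as a block, the counts for SRPIN340, Endovion, THZ531 and the combination were 1, 1, 4 and 4 in nascent RNA and 0, 9, 17 and 20 in total RNA, and 0 for the combination against THZ531 in both. With at most 1576121 T>C reads a library, 13 of the 51 genes had too few for a test in nascent RNA.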
